A study of Mus musculus with 31 samples.

Results

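The genes described here are 10 genes that neurons switch on soon after they are activated: *Arc*, *Homer1*, *Egr1*, *Egr2*, *Egr3*, *Egr4*, *Nr4a1*, *Nr4a2*, *Nr4a3* and *Npas4*. They were 10 of the 52636 genes with a value in the caudate putamen (CPu), the dorsal part of the striatum, and were chosen by name because *Arc* and *Egr1* had been lower in mice administered the tricyclic antidepressant imipramine (IMN). All 10 passed the filter on low values. The CPu was punched from frozen slices of the brains of 31 female mice, 8 to 11 weeks old, and each punch was sequenced on its own. Wild type (WT) mice and mice heterozygous for a targeted deletion within *Brd1* (*Brd1*+/-), a gene for a chromatin reader that assembles histone acetyltransferases, came from the line C57BL/6NTac-Brd1tm1.2Arte/AborgMmucd. The groups were WT vehicle (n = 8), *Brd1*+/- vehicle (n = 7), WT IMN (n = 8) and *Brd1*+/- IMN (n = 8), with IMN at 10 mg/kg and saline as vehicle. Mice in each group were injected under the skin on both of the test days, went through the tail suspension test, the open field and the forced swim test, and their brains were collected soon after the swim. All levels below were therefore measured after a stressful task, and no group of mice without one was among those analysed here. The deletion was in every tissue from birth, and 1 line of mice was studied.

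Immediate early genes are transcribed within minutes of synaptic activity, from factors such as CREB, SRF and MEF2 that are already in place and are switched on by calcium and MAP kinase signaling. Some of the genes encode transcription factors that pass the signal on: the zinc finger proteins of the Egr family, the orphan nuclear receptors of the Nr4a family, and Npas4, which responds to calcium entry in neurons. Others act at the synapse itself, such as Arc, which takes AMPA receptors off the postsynaptic membrane, and Homer1, which links glutamate receptors to their scaffold. In the striatum they are used as readouts of dopamine and glutamate input to the projection neurons.

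Levels are given as TPM, a share of transcripts per library that takes gene length into account, so genes can be compared with each other. *Brd1* itself checked the labels: its mean was 22.5 ± 2.97 TPM (SD, n = 8) in WT vehicle and 13.4 ± 2.02 TPM (SD, n = 7) in *Brd1*+/- vehicle mice, 19.9 ± 2.67 TPM (SD, n = 8) in WT IMN and 12.8 ± 1.04 TPM (SD, n = 8) in *Brd1*+/- IMN mice. Within each treatment every *Brd1*+/- mouse was below every WT mouse. Across treatments the genotypes overlapped, since WT IMN mouse 2, at 14.6 TPM, was below *Brd1*+/- vehicle mouse 3, at 16.0 TPM. Of 10 markers of striatal projection neurons, 9 were at 1 TPM or more in all 31 mice. The punches did not hold the same tissue, however. The summed level of 10 markers of cortical excitatory neurons was at least 559 TPM in 8 mice and at most 442 TPM in the other 23 mice. The 8 mice were all WT: WT vehicle mice 1, 2, 3, 4, 5 and 7 and WT IMN mice 5 and 8. All *Brd1*+/- mice were among the 23, while 2 WT vehicle and 6 WT IMN mice were. The sum of striatal markers was as low as 286 TPM in WT vehicle mouse 2 and was between 6840 and 9809 TPM in *Brd1*+/- mice. *Neurod1* and *Emx1* of the cortical list were at 0 in some mice. WT vehicle mouse 7 held 26.8 TPM of 4 Y-linked genes, against at most 0.188 TPM in any other mouse, although it was labelled female. The main results that use WT mice are therefore also given for the 23 mice under 500 TPM of cortical markers. In punched tissue, fewer cells of a type and less RNA per cell cannot be told apart.

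Over the 31 mice, *Egr1* had the highest mean of the 10 genes, 207 TPM, and ranked 397 among all genes. *Arc* followed at 119 TPM, *Homer1* at 108 TPM, *Nr4a1* at 106 TPM and *Egr3* at 88.6 TPM. *Egr4* had a mean of 43.4 TPM, *Npas4* of 21.3 TPM, *Nr4a3* of 16.5 TPM, *Egr2* of 13.2 TPM and *Nr4a2* of 11.8 TPM. The genes also differed in their spread. The highest mouse had 1.99 times the TPM of the lowest for *Homer1* and 2.31 times for *Egr1*, 8.39 times for *Arc*, 9.15 times for *Npas4* and 202 times for *Nr4a2*. Within groups, the SD of log2(TPM + 1) was 0.25 for *Homer1*, the same as the median of 0.25 over the 17391 genes with a mean of at least 1 TPM, and 1.72 for *Nr4a2*, which exceeded 99.8% of those genes. It lay between 0.27 (*Egr1*) and 0.57 (*Egr2*) for the other 8.

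**Figure D1:**
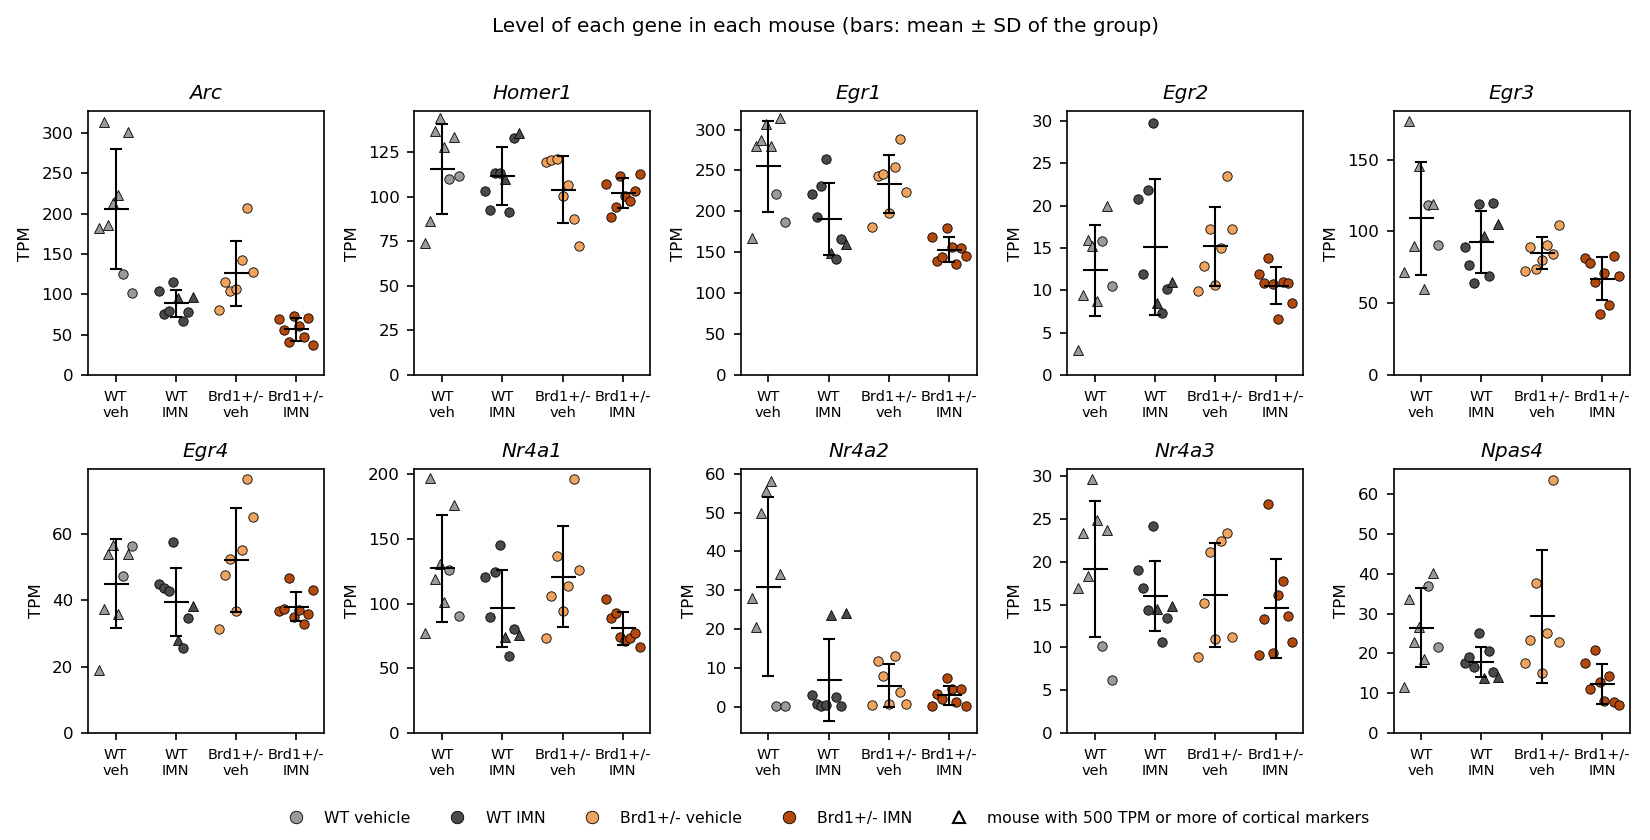
Level of each of the 10 genes in TPM (linear axis) in each of the 31 mice, by genotype and treatment, with bars for the mean ± SD of the group and triangles for the 8 mice with 500 TPM or more of cortical markers. *Arc* ran from 313 TPM in a WT vehicle mouse to 37.3 TPM in a *Brd1*+/- IMN mouse, *Homer1* stayed between 72.5 and 144 TPM, and *Nr4a2* exceeded 20 TPM in the triangles alone.

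The promoters of these genes are shown because several of the genes moved together from mouse to mouse, as given further on. Windows of 250 bases upstream of a RefSeq transcription start (GRCm38.p6) were at hand for 7 of the 10 genes, and 5 are printed, for genes that covaried closely (*Nr4a1*, *Egr2* and *Egr4*) and for genes that did not (*Nr4a2* and *Homer1*). They read 5′ to 3′ on the strand of the gene, and capitals mark the letters TGACG on either strand, the core of the cAMP response element that CREB binds, and, in *Egr2*, a CArG box, the core of the serum response element that SRF binds.
Nr4a1, chr15:101266596-101266845, plus strand: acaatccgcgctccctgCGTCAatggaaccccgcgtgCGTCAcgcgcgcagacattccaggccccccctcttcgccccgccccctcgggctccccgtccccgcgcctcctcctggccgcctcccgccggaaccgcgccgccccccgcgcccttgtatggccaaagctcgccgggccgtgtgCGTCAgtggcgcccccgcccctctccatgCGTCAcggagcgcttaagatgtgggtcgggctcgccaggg
Egr2, chr10:67537619-67537868, plus strand: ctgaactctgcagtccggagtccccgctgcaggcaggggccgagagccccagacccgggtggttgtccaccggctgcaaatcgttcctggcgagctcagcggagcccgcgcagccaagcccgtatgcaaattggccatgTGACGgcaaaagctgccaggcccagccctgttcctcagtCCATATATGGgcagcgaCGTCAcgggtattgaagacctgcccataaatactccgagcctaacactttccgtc
Egr4, chr6:85513590-85513839, minus strand: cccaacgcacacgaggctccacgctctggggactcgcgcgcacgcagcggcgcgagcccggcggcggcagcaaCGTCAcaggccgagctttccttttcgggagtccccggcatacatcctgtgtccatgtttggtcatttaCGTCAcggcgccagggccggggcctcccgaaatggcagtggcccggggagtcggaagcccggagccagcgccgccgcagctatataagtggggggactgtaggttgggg
Nr4a2, chr2:57124004-57124253, minus strand: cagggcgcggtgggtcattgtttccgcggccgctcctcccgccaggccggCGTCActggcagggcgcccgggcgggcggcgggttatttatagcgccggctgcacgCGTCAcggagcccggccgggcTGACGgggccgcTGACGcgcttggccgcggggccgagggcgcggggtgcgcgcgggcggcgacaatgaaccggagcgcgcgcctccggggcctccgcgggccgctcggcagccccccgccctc
Homer1, chr13:93303507-93303756, plus strand: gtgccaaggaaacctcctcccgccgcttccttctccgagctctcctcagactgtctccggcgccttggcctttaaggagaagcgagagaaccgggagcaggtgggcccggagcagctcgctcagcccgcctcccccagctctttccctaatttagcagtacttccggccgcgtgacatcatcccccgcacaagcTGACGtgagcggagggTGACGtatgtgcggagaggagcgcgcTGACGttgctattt
TGACG was found 4 times in this window of *Nr4a1*, 4 times in that of *Nr4a2*, 3 times in that of *Homer1*, and 2 times in those of *Egr2* and *Egr4*. Other windows of *Egr2* and *Homer1* were at hand too, and those at chr10:67535249-67535498 and chr13:93307784-93308033 held none. A gene with more windows has more chances to hold the letters in at least 1. All 7 genes with a window, *Nr4a3* and *Npas4* included, had it in at least 1 window, against 19.8% of the 27025 genes with a window and 17.8% of the 32851 windows. The longer element TGACGTCA, which contains TGACG on both strands, was in 0 of the 7 genes and in 1.77% of genes. A CArG box was found in 1 of the 7 genes, *Egr2*, and in 1.62% of genes. Matching letters describe the window and show no binding, and the printed windows of covarying and other genes did not separate by the count of TGACG.

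IMN was compared with vehicle within each genotype to describe the difference on which the genes had been chosen, so the values carry no test. In *Brd1*+/- mice all 10 genes were lower under IMN, with a median log2 fold change of −0.44, where the median over all genes was 0.01 and 45.6% of 23020 genes were lower. *Arc* and *Npas4* differed most, by −1.12 each. *Arc*, at chr15:74669083-74672570 on the minus strand, ran from 81.0 to 206 TPM with a median of 115 TPM in *Brd1*+/- vehicle mice. It ran from 37.3 to 73.4 TPM with a median of 58.4 TPM in *Brd1*+/- IMN mice. Every IMN mouse lay below every vehicle mouse, and the means, 126 ± 40.3 TPM (SD, n = 7) and 56.9 ± 14.2 TPM (SD, n = 8), gave a log2 fold change of −1.12 (SE 0.19), or 0.460-fold on the TPM + 1 scale. *Egr1*, the Egr factor that is most abundant here and acts on synaptic genes, ran from 181 to 288 TPM with a median of 244 TPM under vehicle, and from 135 to 180 TPM with a median of 150 TPM under IMN. These groups did not overlap either, by the narrow margin between the highest IMN mouse at 179.8 TPM and the lowest vehicle mouse at 181.2 TPM (log2 fold change −0.60, SE 0.09). *Arc* and *Egr1* were the 2 of the 10 genes without overlap, and over all genes 0.0738% were lower without overlap.

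The other Egr genes overlapped between the groups of *Brd1*+/- mice. *Egr2*, a factor also needed for myelination outside the brain, had a log2 fold change of −0.46 (SE 0.17), *Egr4* of −0.40 (SE 0.15) and *Egr3* of −0.36 (SE 0.14). The means were 15.2 ± 4.66 and 10.5 ± 2.16 TPM for *Egr2*, 52.2 ± 15.6 and 38.1 ± 4.48 TPM for *Egr4*, and 85.0 ± 11.1 and 67.2 ± 14.9 TPM for *Egr3* (SD, n = 7 vehicle and n = 8 IMN). In each of *Egr1*, *Egr2* and *Egr4* the IMN mice were closer together than the vehicle mice, whereas in *Egr3* they were farther apart. Of the nuclear receptors, *Nr4a1* ran from 73.3 to 197 TPM with a median of 114 TPM under vehicle and from 66.5 to 104 TPM with a median of 75.9 TPM under IMN (log2 fold change −0.53, SE 0.16). *Brd1*+/- vehicle mice 1 and 4 were within the IMN range, and the other 5 vehicle mice were at 106 TPM or more. *Nr4a3* differed by −0.13 (SE 0.24) and *Nr4a2* by −0.41 (SE 0.57), both less than their standard errors. *Npas4* ran from 15.03 to 63.5 TPM with a median of 23.4 TPM under vehicle and from 6.93 to 20.8 TPM with a median of 11.9 TPM under IMN (log2 fold change −1.12, SE 0.28). The highest vehicle value of *Npas4*, like those of *Arc*, *Egr1*, *Egr2*, *Egr4*, *Nr4a1* and *Nr4a3*, was that of vehicle mouse 6. *Homer1* was level, at 104 ± 18.7 TPM (SD, n = 7) under vehicle and 102 ± 8.36 TPM (SD, n = 8) under IMN (log2 fold change −0.01, SE 0.10). Its short form is the one induced by activity, but the table sums all transcripts of a gene and does not tell the forms apart. Without vehicle mouse 6, the log2 fold change of *Arc* was −0.99, which was the smallest difference that leaving out any 1 of these 15 mice gave. Beside these differences, 5 of 5 oligodendrocyte markers were higher under IMN in *Brd1*+/- mice (median log2 fold change 0.46), 10 of 10 striatal projection neuron markers were lower (median −0.19) and 6 of 10 cortical markers were lower (median −0.05); their part in the result was not tested. With the cortical markers as a covariate *Arc* was at −1.10 and *Egr1* at −0.59.

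In WT mice, 9 of the 10 genes were lower under IMN, with a median log2 fold change of −0.29, beside a median of −0.08 over all genes and 67.5% of 23579 genes lower. *Arc* ran from 101 to 313 TPM with a median of 199 TPM in WT vehicle mice and from 66.6 to 115 TPM with a median of 87.1 TPM in WT IMN mice. The groups overlapped because the lowest vehicle mouse, at 101 TPM, was below 2 IMN mice, and the log2 fold change was −1.13 (SE 0.20). None of the 10 genes was without overlap in WT mice, where 0.115% of all genes were lower without overlap. *Egr1* ran from 167 to 313 TPM with a median of 280 TPM under vehicle and from 141 to 264 TPM with a median of 179 TPM under IMN (log2 fold change −0.42, SE 0.16). *Npas4* differed by −0.48 (SE 0.21) and *Nr4a1* by −0.39 (SE 0.21). *Egr3*, *Egr4* and *Nr4a3* differed by −0.19 (SE 0.20), −0.16 (SE 0.21) and −0.15 (SE 0.26), *Homer1* by −0.03 (SE 0.13), and *Egr2* was higher by 0.27 (SE 0.33). *Nr4a2*, a nuclear receptor known for its part in dopamine neurons and in deep cortical layers, had the widest difference, −2.16 (SE 0.95).

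Beside these WT values, the markers of the tissue in the punch differed too. All 10 cortical markers were lower in WT IMN than in WT vehicle mice (median log2 fold change −1.96), with sums of 56.6 to 2070 TPM under vehicle and 70.2 to 1215 TPM under IMN, and all 10 striatal markers were higher (median 1.48). Erythrocyte markers were lower, 5 of 5 (median −0.54), and the part of these in the result was not tested. Among the 2 WT vehicle and 6 WT IMN mice under 500 TPM of cortical markers, the log2 fold change of *Arc* was −0.41 (SE 0.20), that of *Egr1* −0.03 (SE 0.21), that of *Nr4a1* −0.11 (SE 0.30) and that of *Npas4* −0.56 (SE 0.21). *Egr2* was at 0.23 (SE 0.45), *Egr3* at −0.25 (SE 0.25), *Egr4* at −0.34 (SE 0.24) and *Homer1* at −0.05 (SE 0.13). *Nr4a2* was then higher under IMN by 0.59 (SE 0.46) and *Nr4a3* by 0.92 (SE 0.27). Of these 8 mice too the punches were not alike, since 6 of the 7 cortical markers that passed the filter were higher under IMN (median 1.23). There 9 of 10 striatal markers (median −0.12) and 5 of 5 erythrocyte markers (median −0.83) were lower. Of the astrocyte, oligodendrocyte and microglia markers, 0 of 5 each were lower (medians 0.21, 0.27 and 0.19). The part of these markers in the result was not tested. The 2 WT vehicle mice left had 126 and 101 TPM of *Arc*, and the 6 WT IMN mice had 66.6 to 115 TPM, so the groups overlapped. With the cortical markers as a covariate over all 16 mice, *Arc* was at −0.81 (SE 0.17) and *Nr4a2* at −0.12 (SE 0.31). Without WT vehicle mouse 7, which carried Y-linked transcripts, *Arc* was at −1.04 (SE 0.20), *Egr1* at −0.37 (SE 0.16) and *Npas4* at −0.38 (SE 0.20), and 8 of the 10 genes were lower.

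The genotypes can be set side by side, although the choice of genes used the same mice. The log2 fold change of *Arc* with IMN differed between *Brd1*+/- and WT mice by 0.01 (SE 0.30), that of *Egr1* by −0.18 (SE 0.19), that of *Npas4* by −0.63 (SE 0.39) and that of *Egr2* by −0.74 (SE 0.40), where below 0 means a lower value in *Brd1*+/- mice. Among the other 6, *Nr4a2* was at 1.75 (SE 1.22) and the rest lay between −0.24 and 0.02. These values were not the same without the cortex-rich WT punches. Among the 23 mice under 500 TPM of cortical markers, with 2 WT vehicle mice, the difference was −0.72 (SE 0.28) for *Arc*, −0.56 (SE 0.21) for *Egr1*, −0.55 (SE 0.50) for *Npas4*, −0.69 (SE 0.44) for *Egr2*, −1.06 (SE 0.44) for *Nr4a3* and −1.01 (SE 0.72) for *Nr4a2*. It was −0.42 (SE 0.36) for *Nr4a1*, −0.11 (SE 0.29) for *Egr3*, −0.05 (SE 0.27) for *Egr4* and 0.04 (SE 0.14) for *Homer1*.

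**Figure D2:**
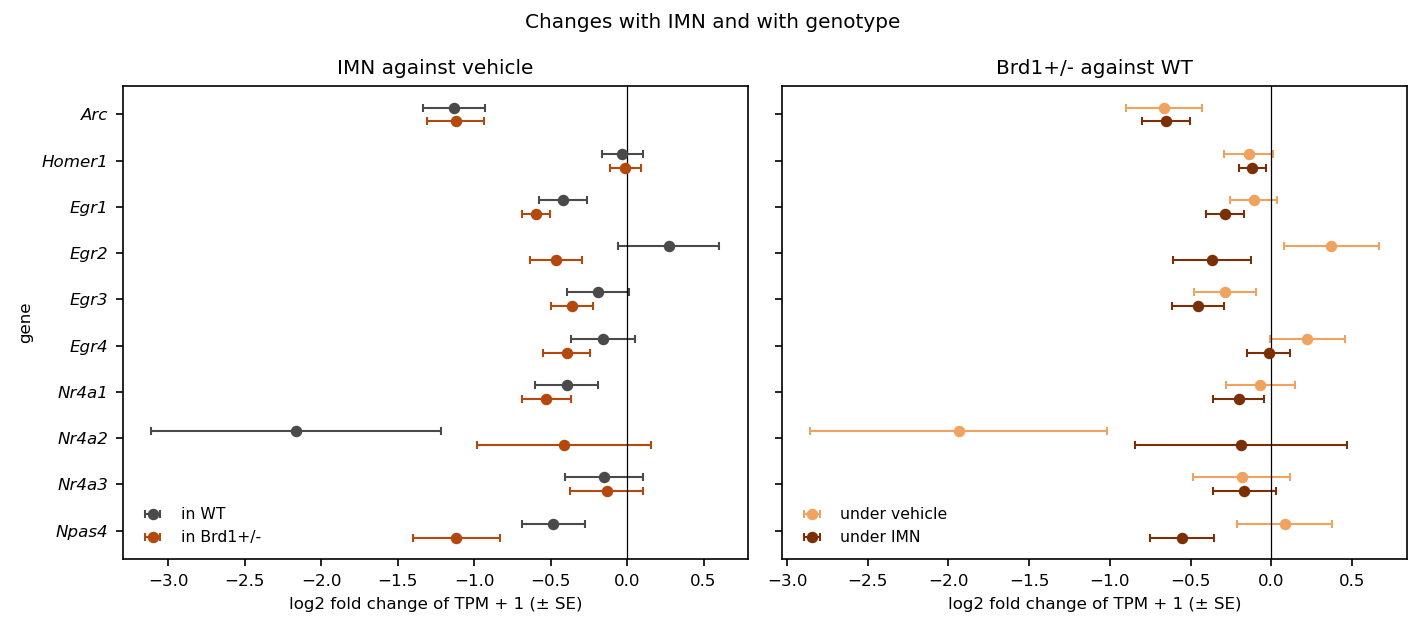
Log2 fold change of TPM + 1 (± SE) of each gene for IMN against vehicle in WT and *Brd1*+/- mice (left) and for genotype within each treatment (right). With IMN, *Arc* was at −1.13 in WT and −1.12 in *Brd1*+/- mice and *Homer1* at −0.03 and −0.01, while among mice under 500 TPM of cortical markers, not drawn here, *Arc* in WT mice was at −0.41.

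*Brd1*+/- mice were compared with WT mice within each treatment to describe the genotype, again with no test because these are the mice on which the genes were chosen. Under IMN, all 10 genes were lower in *Brd1*+/- mice, with a median log2 fold change of −0.25 beside −0.03 over all genes and 63.3% of 23339 genes lower. *Arc* was at 88.9 ± 16.4 TPM (SD, n = 8) in WT IMN and 56.9 ± 14.2 TPM (SD, n = 8) in *Brd1*+/- IMN mice (log2 fold change −0.65, SE 0.15). Of the 8 *Brd1*+/- mice, 5 were below the lowest WT mouse. The difference was −0.61 (SE 0.17) without the 2 WT IMN mice rich in cortical markers. *Npas4* differed by −0.55 (SE 0.20), *Egr3* by −0.45 (SE 0.16), *Egr2* by −0.37 (SE 0.24), *Egr1* by −0.29 (SE 0.12) and *Nr4a1* by −0.20 (SE 0.16). With 1 mouse left out, *Egr2* lay between −0.48 and −0.21, *Egr1* between −0.35 and −0.22 and *Nr4a1* between −0.29 and −0.11. Each was nearest 0 without WT IMN mouse 4. *Homer1* differed by −0.12 (SE 0.08), and *Nr4a2*, *Nr4a3* and *Egr4* by less than their standard errors. No gene of the 10 was without overlap, where 0.0129% of all genes were lower without overlap. Without the 2 cortex-rich WT mice, 9 of 10 were lower, with a median of −0.34, and *Nr4a2* was higher by 0.72 (SE 0.43). Beside these differences, 8 of 10 cortical markers were lower in *Brd1*+/- IMN mice (median log2 fold change −0.17), 5 of 5 oligodendrocyte markers higher (median 0.21) and 5 of 5 erythrocyte markers higher (median 0.49), and their part in the result was not tested.

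Under vehicle, 7 of the 10 genes were lower in *Brd1*+/- mice, with a median log2 fold change of −0.12 beside −0.13 over all genes, of which 72.8% of 23200 were lower. Median-of-ratios scaling moved the median of all genes to 0.00 and left 3 of the 10 genes lower: *Arc*, *Egr3* and *Nr4a2*. *Arc* was at 206 ± 74.8 TPM (SD, n = 8) in WT vehicle and 126 ± 40.3 TPM (SD, n = 7) in *Brd1*+/- vehicle mice (log2 fold change −0.66, SE 0.24). The *Brd1*+/- mice, from 81.0 to 206 TPM, overlapped with the WT mice, from 101 to 313 TPM. No gene of the 10 was without overlap, where 0.272% of all genes were lower without overlap. Against the 2 WT vehicle mice under 500 TPM of cortical markers, at 126 and 101 TPM, *Arc* was at 0.11 (SE 0.27) and *Egr1* at 0.18 (SE 0.16). *Egr3* was at −0.29 in both the full comparison (SE 0.19) and this one (SE 0.14). *Nr4a2* went from −1.94 (SE 0.92) to 1.73 (SE 0.88) and *Nr4a3* from −0.18 (SE 0.30) to 0.86 (SE 0.35). The 2 WT mice had 59.4 and 56.6 TPM of summed cortical markers, below all 7 *Brd1*+/- vehicle mice, at 70.1 to 286 TPM. Beside the vehicle differences of all 15 mice, 10 of 10 cortical markers were lower in *Brd1*+/- mice (median log2 fold change −2.03), 10 of 10 striatal markers higher (median 1.63), and 5 of 5 oligodendrocyte and 5 of 5 astrocyte markers lower (medians −0.32 and −0.27), and their part in the result was not tested. By mean TPM, *Arc* thus fell into the order WT vehicle, *Brd1*+/- vehicle, WT IMN and *Brd1*+/- IMN, and each neighbouring pair in this order overlapped.

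The genotype difference averaged over vehicle and IMN was tested. With near-equal groups it uses a contrast at right angles to the one on which the genes were chosen. Such contrasts are independent only where groups have the same spread, and that of *Arc* was widest in WT vehicle mice. This group enters both contrasts, and 6 of its mice were cortex-rich, so the test of *Arc* is not free of the choice. The genotype difference was fitted by limma over all 31 mice and 25394 genes. *Arc* was lower in *Brd1*+/- mice by 0.66 on the log2 scale (log2 fold change −0.66, SE 0.14, 0.633-fold, unadjusted p = 7.77e-05 and adjusted p = 0.0366 in limma), and was the only 1 of the 10 genes under a false discovery rate (FDR) of 5%, which 5.93% of all genes passed. *Egr3*, whose product acts downstream of neurotrophin and glutamate signaling, was at −0.37 (SE 0.13, unadjusted p = 0.00724 and adjusted p = 0.0685 in limma) and passed a p of 0.01, as did 12.5% of all genes. *Egr1* was at −0.20 (SE 0.10, unadjusted p = 0.0454 and adjusted p = 0.176 in limma), under a p of 0.05 with 27% of all genes. With sample quality weights it was at −0.29 and passed an FDR of 5% (adjusted p = 0.0222 in limma), the 1 of 11 alternatives in which it did. It was nearest 0 at −0.0679 under quantile normalization (adjusted p = 0.777) and was at −0.0964 in the 23 mice under 500 TPM of cortical markers (SE 0.11, adjusted p = 0.937). *Nr4a2* had a wide difference and a wide error, −1.06 (SE 0.59, adjusted p = 0.245). The other 6 lay between −0.24 (*Npas4*, SE 0.18) and 0.10 (*Egr4*, SE 0.14), with adjusted p from 0.351 to 0.996. The median of the 10 was −0.19, beside −0.07 over all genes.

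The call for *Arc* held in 6 of 11 alternatives: a pseudocount of 0.1, a mean of at least 1 TPM, no filter, no trend, sample weights and the mouse number as a replicate block, with adjusted p from 0.000971 to 0.0499 in limma. It was lost when any 1 of 12 mice was left out (WT vehicle 1, 2, 4, 5 or 7, *Brd1*+/- vehicle 1, 2 or 4, WT IMN 5 or 8, *Brd1*+/- IMN 1 or 5), with a highest adjusted p of 0.0671 in limma, and held without any 1 of the other 19. *Arc* was not called in the other 5 alternatives, among them −0.54 after median-of-ratios scaling (adjusted p = 0.0835 in limma), −0.47 with the cortical markers as a covariate (adjusted p = 0.125) and −0.25 among the 23 mice under 500 TPM of cortical markers (SE 0.17, adjusted p = 0.917). The direction was the same in each of these fits. Without WT vehicle mouse 7, which carried Y-linked transcripts, *Arc* was at −0.61 (SE 0.14, adjusted p = 0.0567 in limma). In that fit 8 genes in all passed an FDR of 5%. Among the 23 mice the number of genes under an FDR of 5% was 0, with 259 at a p under 0.01, against 1505 and 3177 in 31 mice, and only 2 of these 23 were WT vehicle mice. The punches of the 23 were not balanced either, since 9 of 10 cortical markers were higher in *Brd1*+/- mice there (median log2 fold change 0.86) and 9 of 10 striatal markers lower (median −0.12). In the averaged comparison of all 31 mice every one of the 10 cortical markers was below its WT level (median log2 fold change −1.05) and every striatal marker above it (median 0.82). Erythrocyte markers were higher in *Brd1*+/- mice, 5 of 5 (median 0.30), each at an unadjusted p under 0.05 in limma, and their part in the result was not tested. The share of the genotype difference that goes with the punch and the share that goes with the genotype cannot be told apart, because all cortex-rich mice were WT. *Egr3* was at −0.37 with the covariate (adjusted p = 0.255) and −0.35 in the 23 mice (adjusted p = 0.911), and passed an FDR of 5% only without WT vehicle mouse 8 (adjusted p = 0.0416).

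**Figure D3:**
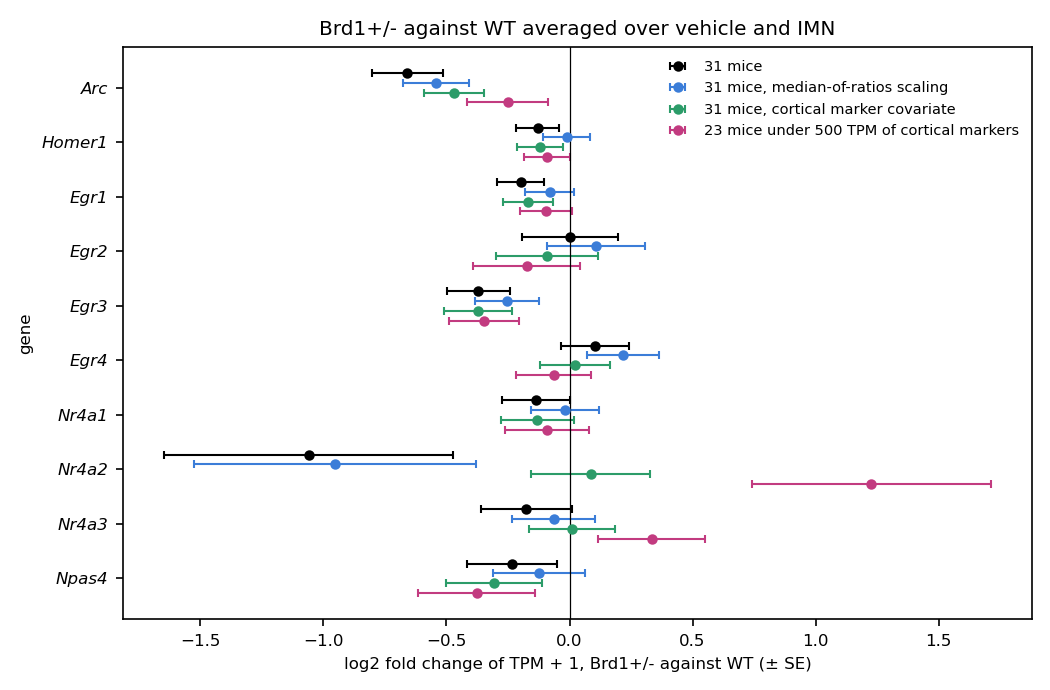
Log2 fold change of TPM + 1 (± SE) of each gene in *Brd1*+/- against WT mice, averaged over vehicle and IMN, in 31 mice, after median-of-ratios scaling, with the mean log2 level of the cortical markers as a covariate, and in the 23 mice under 500 TPM of cortical markers. *Arc* moved from −0.66 to −0.25 and *Nr4a2* from −1.06 to 1.23, while *Egr3* stayed between −0.37 and −0.25.

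*Nr4a2* was the 1 gene of the 10 that separated the cortex-rich mice from the others. It was at 20.6 to 58.1 TPM in the 8 cortex-rich mice and at 0.288 to 13.1 TPM in the other 23, without overlap. WT vehicle mice 6 and 8, the 2 under 500 TPM of cortical markers, had 0.322 and 0.343 TPM, while the other 6 WT vehicle mice had at least 20.6 TPM. The other 9 genes overlapped between these sets of mice. *Arc* was at a median of 199 TPM in the 8 mice and 78.8 TPM in the 23, *Nr4a3* at 20.8 and 13.7 TPM, and *Egr1* at 280 and 187 TPM. *Homer1* was at 131 and 107 TPM, and *Egr2* at 10.2 and 11.9 TPM and *Egr4* at 37.8 and 43.0 TPM were the 2 genes with a lower median in the cortex-rich mice. Since 6 of the 8 were vehicle mice, these sets also differ in treatment.

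**Figure D4:**
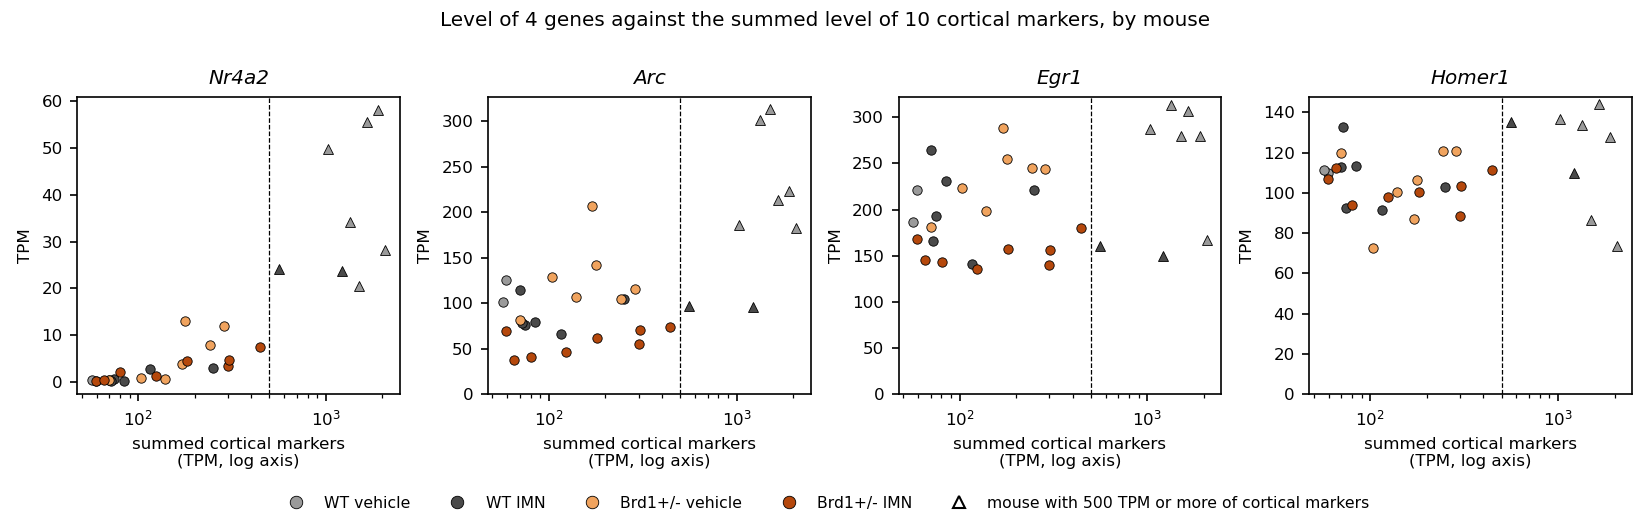
Level of *Nr4a2*, *Arc*, *Egr1* and *Homer1* in TPM (linear axis) against the summed TPM of 10 cortical excitatory neuron markers (log axis), 1 point per mouse, with a dashed line at 500 TPM. *Nr4a2* was at 20.6 TPM or more right of the line and at 13.1 TPM or less left of it, whereas the values of *Arc*, *Egr1* and *Homer1* overlapped across the line.

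Within groups, several of the genes rose and fell together from mouse to mouse. Correlations were computed on the deviation of log2(TPM + 1) from the group mean over the 23 mice under 500 TPM of cortical markers, for all 45 pairs, with p-values from 100000 two-sided permutations within groups. Of the 45 pairs, 36 had a Pearson's r above 0, the median r was 0.33, and 15 pairs, all with r above 0, had an adjusted p under 0.05, of which 8 did by Spearman's rho too. The same counts were not made for pairs of other genes, so they do not set these genes apart. Over the 31 mice, *Egr2* ranked 4 of 17390 genes by r with *Nr4a1* (0.795) and 5531 by r with *Arc* (0.283). *Nr4a1* and *Egr2* were closest, with r = 0.922 (permutation p = 1e-05, the smallest these permutations can give, adjusted p = 0.00045) and rho = 0.935 (permutation p = 1e-05, adjusted p = 0.00045). Without the 2 mice farthest from the median of *Egr2*, r was 0.892. *Nr4a1* and *Egr1* had r = 0.832 (permutation p = 5e-05, adjusted p = 0.00075) and rho = 0.798 (permutation p = 0.00014, adjusted p = 0.0021), and r = 0.75 without the 2 mice farthest in *Egr1*. *Arc* was closest to *Egr1*, with r = 0.749 (permutation p = 5e-05, adjusted p = 0.00075) and rho = 0.774 (permutation p = 7e-05, adjusted p = 0.00157), and r = 0.671 without the 2 mice farthest in *Arc*. Of the 15 pairs the lowest r without 2 mice was 0.379, for *Arc* and *Egr2*.

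*Homer1*, *Nr4a2* and *Egr3* were in none of the 15 pairs. The r of *Homer1* with the other 9 lay between −0.29 and 0.09 and that of *Nr4a2* between −0.14 and 0.39, and 0 pairs of either had an unadjusted permutation p under 0.05. *Egr3* reached r = 0.33, with *Egr4*, and also had 0 such pairs by r, whereas by rho *Arc* and *Egr3* had 0.458 (permutation p = 0.0397, adjusted p = 0.105). Of the promoters printed above, those of *Nr4a1*, *Egr2* and *Egr4* belong to the correlated genes and those of *Nr4a2* and *Homer1* do not, and TGACG occurs in both kinds. In the 8 cortex-rich mice 40 of 45 pairs had r above 0, none with an adjusted p under 0.05 over all 1440 exact permutations (smallest 0.0563) and 13 with an unadjusted p under 0.05. There the r of *Homer1* was between −0.00243 and 0.887, the highest with *Egr4* (exact permutation p = 0.00486, adjusted p = 0.0563, rho = 0.881, exact p = 0.00833, adjusted p = 0.099, and r = 0.826 without 2 mice). With *Egr2*, *Egr1* and *Nr4a2* it was 0.853, 0.812 and 0.787, and the difference from the 23 mice was not tested. All values of a mouse share 1 library, so correlations between genes also hold what differs between libraries.

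**Figure D5:**
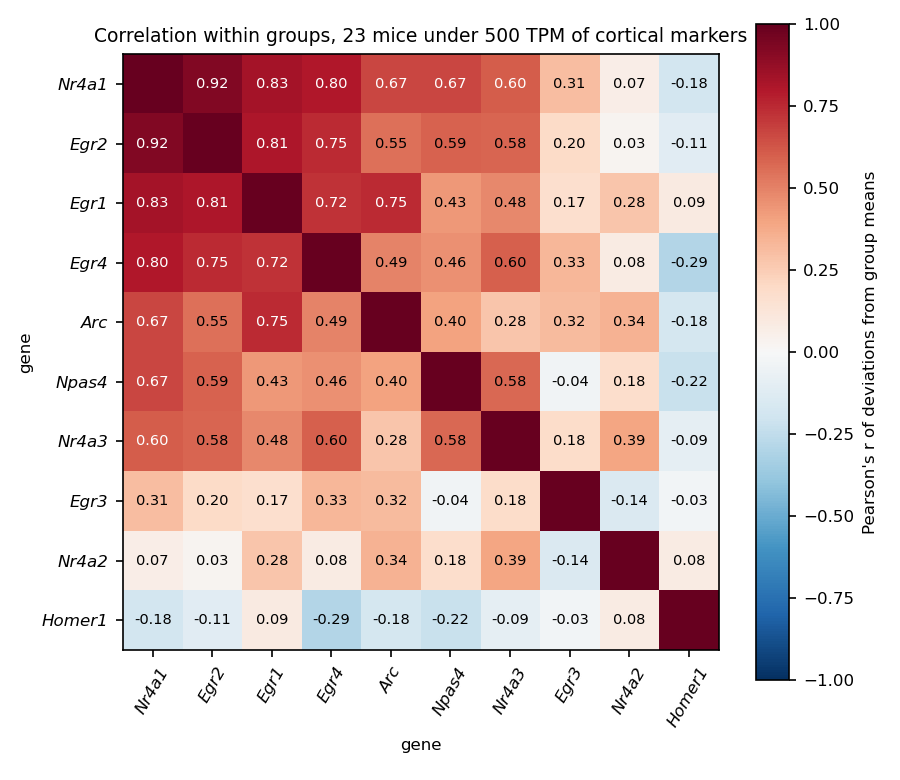
Pearson's r between each pair of the 10 genes, from deviations of log2(TPM + 1) from the group mean in the 23 mice under 500 TPM of cortical markers. Values ran from 0.92 for *Nr4a1* and *Egr2* to −0.29 for *Homer1* and *Egr4*, and the rows of *Egr3*, *Nr4a2* and *Homer1* hold no r above 0.392.

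Across all 17390 other genes with a mean of at least 1 TPM, those most like a member were ranked by r within groups over the 31 mice, as a description. For *Arc* they were *Trib1* (r = 0.81), *Fos* (0.74), *Txn-ps1* (0.74), *Ccdc149* (0.74) and *Efr3a* (0.71), and in the 23 mice the r of *Trib1* was 0.71 and that of *Fos* 0.53. *Egr1* ranked 139 for *Arc* over the 31 mice (r = 0.648). In the 23 mice its r was 0.749, above those of all 5 genes there (highest 0.711, for *Trib1*), and ranks were not computed in these mice. For *Nr4a1* they were *1700016P03Rik* (0.88), *Junb* (0.87), *Egr1* (0.80), *Egr2* (0.80) and *Dusp14* (0.77), so 2 of the 5 were among the 10 genes, and r was 0.83 to 0.92 for all 5 in the 23 mice. For *Homer1* they were *Inhba* (0.72), *E2f3* (0.70), *Mfap3l* (0.69), *Gm8822* (0.69) and *Gm6828* (0.69), at 0.53 to 0.58 in the 23 mice, and the closest of the 10 genes, *Egr1*, ranked 1664.

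Other genes of the pathway were taken from 4 lists. The first holds 22 early response genes outside the 10, among them the AP-1 factor genes *Fos*, *Jun* and *Junb* and inhibitors of signaling such as the phosphatase genes *Dusp1* and *Dusp6*. With IMN, 20 of 22 were lower in WT mice (median log2 fold change −0.32) and 14 of 22 in *Brd1*+/- mice (median −0.06), where 67.5% and 45.6% of all genes were lower. The cortical and striatal markers differed between these WT groups as above, and in the 8 WT mice under 500 TPM of cortical markers 9 of 22 were lower (median 0.03, beside 44.6% of all genes and a median of 0.02). *Fos* had means of 27.9 ± 19.9 and 8.90 ± 3.89 TPM in WT vehicle and WT IMN mice (SD, n = 8 each; log2 fold change −1.31, SE 0.41), and differed by −0.04 (SE 0.40) in those 8 mice. In *Brd1*+/- mice it was at 9.91 ± 4.30 and 5.44 ± 2.098 TPM (SD, n = 7 and n = 8; −0.73, SE 0.24). The zinc finger gene *Klf10* differed by −0.53 (SE 0.11) and *Dusp6* by −0.45 (SE 0.10) in *Brd1*+/- mice, and *Ier2* by −1.26 (SE 0.29) and *Ier5* by −0.94 (SE 0.22) in WT mice, or by −0.44 (SE 0.16) and −0.37 (SE 0.14) in the 8. In the averaged genotype comparison 20 of 22 were lower in *Brd1*+/- mice, where 72% of all genes were, and 8 of 22 in the 23 mice, where 48.1% of all genes were. In 31 mice, 4 passed an FDR of 5%, all lower, as did 5.56% of all genes: *Klf10* (−0.52, SE 0.13, adjusted p = 0.0366 in limma), *Ier5* (−0.55, SE 0.14, adjusted p = 0.0366), the pseudokinase gene *Trib1* (−0.57, SE 0.16, adjusted p = 0.0402) and *Fos* (−0.87, SE 0.25, adjusted p = 0.0423). The other 18 did not pass.

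The second list holds 13 effector genes that respond later, such as the neurotrophin gene *Bdnf*. With IMN, 9 of 13 were lower in WT (median −0.42) and 12 of 13 in *Brd1*+/- mice (median −0.19), and in the 8 WT mice 7 of the 12 that passed the filter (median −0.05). *Rgs2*, an inhibitor of G protein signaling, was at 106 ± 12.2 and 74.9 ± 14.9 TPM in *Brd1*+/- vehicle and IMN mice (SD, n = 7 and n = 8; log2 fold change −0.51, SE 0.11), and in WT mice it was higher under IMN by 0.38 (SE 0.27). *Nptx2*, a pentraxin that clusters AMPA receptors, differed by −0.28 (SE 0.10) in *Brd1*+/- mice, and *Pcsk1*, a prohormone convertase, by −0.98 (SE 0.32) in WT mice. *Nrn1* was widest in both genotypes, at −2.31 (SE 1.11) in WT and −0.53 (SE 0.58) in *Brd1*+/- mice. It ran from 0.700 to 358 TPM in WT vehicle mice, and in the 8 WT mice it was at 1.3 (SE 0.54), while *Pcsk1* was at −0.05 (SE 0.17) and *Rgs2* at −0.28 (SE 0.16). In the averaged genotype comparison 3 of 13 passed an FDR of 5%, all lower in *Brd1*+/- mice like 5.56% of all genes: *Rheb* (−0.34, SE 0.10, adjusted p = 0.0400 in limma), *Nptx2* (−0.39, SE 0.11, adjusted p = 0.0421) and *Bdnf* (−1.12, SE 0.33, adjusted p = 0.0441). *Bdnf* was at 7.01 ± 5.48 TPM in WT vehicle mice (SD, n = 8) and at a mean of 0.364 to 1.22 TPM in the other groups.

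The third list holds 17 kinases and transcription factors that act on these genes. With IMN, 7 of 17 were lower in WT (median 0.07) and 11 of 17 in *Brd1*+/- mice (median −0.04). In *Brd1*+/- mice the differences lay between −0.20 (*Srf*, SE 0.07) and 0.25 (*Rps6ka5*, SE 0.17), with *Elk1* at 0.11 (SE 0.10). In WT mice they lay between −0.42 (*Mef2c*, SE 0.39) and 0.62 (*Camk4*, SE 0.23, and *Rps6ka5*, SE 0.27). In the 8 WT mice, *Mef2c* was at 0.79 (SE 0.15), *Camk4* at 0.06 (SE 0.14) and *Rps6ka5* at −0.39 (SE 0.26). In the averaged genotype comparison, *Prkaca*, the catalytic subunit of protein kinase A (−0.24, SE 0.06, adjusted p = 0.0366 in limma), and *Camk2a* (−0.28, SE 0.08, adjusted p = 0.0434) were the 2 of 17 that passed an FDR of 5%, like 5.93% of all genes, and *Mef2c* was at −0.66 (SE 0.23, adjusted p = 0.0636). The fourth list holds 13 corepressors and binding partners, such as *Nab1* and *Nab2*, whose products hold Egr factors in check, the RXR partners of Nr4a receptors, and the scaffold that Homer proteins bind. With IMN, 7 of 13 were lower in each genotype (medians −0.03 in WT and −0.05 in *Brd1*+/- mice). *Rxrg* was at 1.49 (SE 0.77) and *Shank1* at −1.34 (SE 0.48) in WT mice, and at −0.36 (SE 0.17) and 0.35 (SE 0.15) in the 8. In *Brd1*+/- mice *Rxrg* was at −0.30 (SE 0.20) and *Homer3* at 0.24 (SE 0.18). *Homer2* was lower in *Brd1*+/- mice in the averaged comparison (−0.85, SE 0.18, adjusted p = 0.0348 in limma), as was *Shank2* (−0.48, SE 0.15, adjusted p = 0.0499), while *Shank1* did not pass (−0.80, SE 0.27, adjusted p = 0.0623). In the 23 mice under 500 TPM of cortical markers, where in limma 0 of all genes passed an FDR of 5% and 259 had an unadjusted p under 0.01, the averaged values of these called genes were nearer 0 or above it. *Fos* was at −0.08, *Klf10* at −0.03, *Ier5* at −0.05 and *Trib1* at 0.08. *Rheb* was at −0.02, *Nptx2* at 0.03, *Bdnf* at 0.33, *Prkaca* at −0.03 and *Camk2a* at 0.06. *Homer2* was at −0.22 (SE 0.15) and *Shank2* at −0.01, and *Mef2c* and *Shank1*, which had not passed in 31 mice, were at 0.26 and 0.40. The cortical markers, at a median of 0.86 in the same comparison, were also higher in *Brd1*+/- mice, and their part in these values was not tested. Over 31 mice these calls rest on single libraries as well, since 1 gene in all passed without WT vehicle mouse 5, without WT IMN mouse 5 or without *Brd1*+/- IMN mouse 1.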

How the data were processed

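CPu punches of 31 female mice, 1 per mouse, were sequenced by the authors with the BGISEQ-500. Per the labels and the study's methods, reads were aligned to GRCm38 with HISAT2 2.1.0 and quantified with StringTie 1.3.4; the submitters' processing notes also name FastQC and Trimmomatic. The authors deposited TPM for 52636 genes, in which each mouse sums to between 999787 and 999918. Depth behind a TPM is not recoverable, so precision rests on the spread between mice. Symbols came from the gene name table for 52403 identifiers, gene positions from GENCODE M21 (GRCm38), and 250-base promoter windows from RefSeq. All 31 columns were used.

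Genes that exceeded 0.1 TPM in 7 or more mice of a fit were analysed as log2(TPM + 1) with limma 3.58.1 (R 4.3.3), with empirical Bayes moderation, a mean trend and two-sided tests, adjusted by Benjamini-Hochberg over all genes. The edgeR test of the study's methods needs counts and was not run. Each pair of groups was fitted on its own. The genotype average was fitted over 4 group means. Fold changes on this scale understate changes of low genes. Fits were tested on simulated data. Members and lists were chosen with earlier results of these data known. Genes named are the 10 members, per list up to 3 with the smallest p for genotype and up to 3 with the largest difference with IMN in either genotype (mean of at least 1 TPM), the 5 most like *Arc*, *Nr4a1* and *Homer1*, markers and *Brd1*. Some genes that this rule names are not reported here. Correlations were computed in Python 3.11.15 with numpy 2.4.6 and scipy 1.17.1. Alternatives were a pseudocount of 0.1, a mean of at least 1 TPM, no filter, median-of-ratios scaling, quantile normalization, moderation without the trend, weights per mouse (arrayWeights), the number of a mouse as a block (replicate block), the mean log2 level of cortical markers as a covariate, an additive model, medians in place of means, each mouse left out in turn and, chosen after seeing the data, the 23 mice under 500 TPM of cortical markers. Other regions and drugs of the study were not analysed here. The labels do not say more of how mice were housed or handled together, so p-values measure the spread between these mice.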

Additional observations from a re-analysis of the deposited data

Results flagged for a closer look

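In WT vehicle mouse 1, *Egr2* was at 3.01 TPM and *Egr4* at 19.0 TPM, each far below the other 7 mice of the group, whose lowest values were 8.78 TPM and 35.9 TPM. On the log2(TPM + 1) scale the gap to the next mouse was 0.539 of the range of the group for *Egr2* and 0.578 for *Egr4*, above the critical value of Dixon's test for 8 samples. These were 2 of 40 gene and group pairs examined, and chance gives about 1 in 20. The same mouse had the highest summed level of cortical markers of all, 2070 TPM, and the second lowest of striatal markers, 1255 TPM. Without it, the log2 fold change of *Egr2* in *Brd1*+/- against WT mice, averaged over vehicle and IMN, was −0.11, against 0.00 with it (limma).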

How the results depend on the processing

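The comparisons with IMN in *Brd1*+/- mice kept their direction for all 10 genes under each of the 9 alternatives, and with each mouse left out between 9 and 10 were lower (median −0.59 to −0.38). In the genotype average (limma), *Arc* stayed below 0 in all fits but lost its call under median-of-ratios scaling (−0.54), quantile normalization (−0.54), the cortical marker covariate (−0.47), the additive model (−0.66) and in the 23 mice (−0.25). With 1 mouse left out it lay between −0.72 and −0.61 and kept the call in 19 of 31 cases, with adjusted p from 0.00309 to 0.0671. The 12 mice without which it was lost were WT vehicle 1, 2, 4, 5 and 7, *Brd1*+/- vehicle 1, 2 and 4, WT IMN 5 and 8 and *Brd1*+/- IMN 1 and 5.

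The count of genes under an FDR of 5% went from 1505 to 168 with no filter, 4 under median-of-ratios scaling, 4 under quantile normalization, 5254 with sample quality weights, 4 with the covariate, 1 in the additive model and 0 in the 23 mice, and lay between 1 and 4704 with 1 mouse left out (lowest without WT vehicle 5, highest without WT vehicle 8). At a p under 0.01 it went from 3177 to 1955, 1968, 5197, 1063 and, in the 23 mice, 259, in the order median-of-ratios, quantile, weights and covariate, and lay between 2400 and 4828 with 1 mouse left out. The 23 mice hold only 2 WT vehicle mice; the cause of the other shifts was not tested.

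Some genes changed sign. *Egr2* went from 0.00 to −0.18 with weights, −0.0123 with the replicate block, −0.0912 with the covariate, −0.0103 in the additive model, −0.17 in the 23 mice, and between −0.11 and 0.0791 with 1 mouse left out. *Nr4a2* went from −1.06 to 0.0856 with the covariate and 1.23 in the 23 mice, *Nr4a3* to 0.00874 and 0.33, *Egr4* to −0.0646 in the 23 mice and *Homer1* to 0.000212 under quantile normalization. Under vehicle, the number of the 10 genes lower in *Brd1*+/- mice went from 7 to 3 under median-of-ratios scaling, quantile normalization and the covariate, and to 4 in the 23 mice. Of 45 same-numbered pairs of mice, 11 had a correlation of deviations over 0.1, and all 45 ran from −0.447 to 0.495. Pairs with different numbers were not examined, so whether the numbers pair the mice is not known. With the replicate block 1238 genes passed an FDR of 5%, and the call for *Arc* held. Depth is not known from TPM, and spread between mice limits *Nr4a2* most. Medians in place of means left the order of groups for *Arc* as it was.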
